A study of Mus musculus with 35 samples.

Results

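The Hedgehog pathway was represented by 9 genes of the deposited count table: the ligands *Shh* and *Ihh*, the receptors *Ptch1*, *Smo* and *Hhip*, the cytoplasmic inhibitor *Sufu* and the transcription factors *Gli1*, *Gli2* and *Gli3*. They are 9 of 53465 genes and were picked by name, each symbol having 1 row. *Gli2* was included because its difference between *Smad4* labels on day 14 was already known from these data, so its day 14 values are a description with no test, and its tests use the day 7 libraries. Among all 35 libraries, *Gli2* lay at 9.90 to 70.7 CPM (counts of the gene scaled to a common library total) in those labelled Smad4 on, 17 in number, and at 0.194 to 5.59 CPM in the 18 labelled Smad4 off. In the main label tests, *Gli2* in the pancreas on day 7 and *Gli1* there on day 14 differed more than 2-fold at an adjusted p under 0.05. Of all genes tested in these 2 comparisons, 1.33% (day 7) and 4.64% (day 14) did so. Both results were lost in some of the alternative fits given below. *Gli3*, *Shh*, *Ihh*, *Hhip* and *Smo* passed these thresholds only in comparisons that involve organs or days. *Ptch1* and *Sufu* passed them in none.

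Hedgehog ligands are lipid-modified secreted proteins that bind Patched receptors. Ligand binding relieves the block that Patched places on Smoothened, which signals through the primary cilium to the GLI transcription factors, held back by Sufu. GLI2 is the main activator, GLI3 is processed largely to a repressor, and GLI1 is itself a transcriptional target, as are *Ptch1* and *Hhip*. In pancreatic ductal adenocarcinoma (PDAC), carcinoma cells are known to make the ligands and neighboring stromal fibroblasts to respond to them, and *GLI2* is also known as a gene that TGFβ signaling can induce through SMAD proteins.

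The libraries came from KC-shSmad4 cells, lines derived from primary tumors of a mouse model that carries *Ptf1a-Cre*, *Rosa26-LSL-rtTA3-IRES-mKate2* and a doxycycline (Dox)-inducible, GFP-linked shRNA against *Smad4* at *Col1a1*. *Ptf1a-Cre* acts in the pancreatic lineage, so the alleles were switched on there, and all groups share them. Cells also carried luciferase and were placed into the pancreas, the spleen (for liver metastases, with splenectomy) or the tail vein (for lung metastases) of athymic nude (*Foxn1nu*) hosts, which lack most T cells. The labels give no host age. By the study's account, hosts received Dox chow, and in the groups labelled Smad4 on it was withdrawn at 4 weeks (pancreas), 5 weeks (liver) or 6 weeks (lungs) after injection, 7 or 14 days before mKate2+ tumor cells were sorted and their polyadenylated RNA sequenced. Each organ, day and label made 1 of 12 groups of 2 to 4 mice. Which cell line each library came from is not given in the labels, and nothing there ties libraries to separate cultures, so p-values measure the spread between these mice.

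Total counts ran from 11885461 to 43571007 per library (median, 19415320), so that 3 counts, taken as the detection floor, correspond to 0.0689 to 0.252 CPM. *Smad4* mRNA went against the labels: the 17 libraries labelled Smad4 on held 14.4 to 23.2 CPM of it and the 18 labelled Smad4 off 77.9 to 132 CPM. The labels are therefore used as names, and every fold change compares the libraries labelled on with those labelled off. Whether the 2 labels were exchanged cannot be told from these data, and an exchange would turn the sign of every label difference and of every interaction. The 6 carcinoma markers (*Krt8*, *Krt18*, *Krt19*, *Epcam*, *Cdh1* and *Sox9*) were present in all 35 libraries, with sums of 2299 to 7307 CPM in the pancreas, 3264 to 14982 CPM in the liver and 6088 to 13140 CPM in the lungs. The 8 fibroblast markers summed to 9275 to 25164 CPM in the 10 pancreas libraries. In 1 paired-end liver library (day 7, labelled off, mouse 2) they summed to 30969 CPM, against 247 to 4421 CPM in the other 10 liver libraries and 158 to 2305 CPM in the 14 lung libraries. Its carcinoma markers summed to 3264 CPM, against 11128 to 14982 CPM in the other 10 liver libraries. Acinar markers summed to 230 CPM in it, 4.45 to 16.7 CPM in the other 10 and 500 to 2269 CPM in the pancreas. Hepatocyte markers summed to 1.12 CPM in it, 16.5 to 130 CPM in the other 10 and 1.33 to 10.3 CPM in the pancreas. Each sum departed from the other liver libraries toward the pancreas ones, for a reason not tested. In bulk samples, more cells of a type and more RNA per cell cannot be told apart. The label comparisons of the members in the liver on day 7 are given with and without the paired-end library. Counts of mt-Co3 are above 0 in 10 of the liver and lung libraries and are 0 in the other 25. In comparisons among libraries of 1 kind, *Gli2* was higher in those labelled on in 10 of 10 comparisons, which is a description, since it includes the day 14 values that led to its choice and several comparisons with 1 library a side.

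*Gli2* lies on chromosome 1 (GRCm38, 118834132 to 119053619, minus strand; ENSMUSG00000048402) and *Ihh* on the same chromosome (74945315 to 74951672, minus strand; ENSMUSG00000006538). Their promoters are shown because *Gli2* carries the main pattern here and *Ihh* is the ligand with the most calls between organs. RefSeq promoter entries matched 7 of the 9 members. The sequences are the 250 bases before the start in GRCm38.p6, on the minus strand at chr1:119053620-119053869 and chr1:74951673-74951922, with the 5-base SMAD box (CAGAC, or GTCTG on the other strand) in capitals.
Gli2: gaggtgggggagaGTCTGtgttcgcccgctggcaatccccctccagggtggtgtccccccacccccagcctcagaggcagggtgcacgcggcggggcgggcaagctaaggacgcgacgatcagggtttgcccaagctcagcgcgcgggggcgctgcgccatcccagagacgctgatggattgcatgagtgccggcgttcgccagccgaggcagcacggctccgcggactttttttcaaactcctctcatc
Ihh: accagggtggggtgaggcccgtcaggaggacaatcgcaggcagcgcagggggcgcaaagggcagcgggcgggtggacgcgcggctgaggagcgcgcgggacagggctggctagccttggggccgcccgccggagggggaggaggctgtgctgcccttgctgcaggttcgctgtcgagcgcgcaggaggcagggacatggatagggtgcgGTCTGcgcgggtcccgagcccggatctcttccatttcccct
The *Gli2* window holds 1 SMAD box 237 bases before the start and the *Ihh* window 1 at 41 bases. This short motif is found in 42.2% of the 32851 promoter windows of that length, so a match describes the letters and no more. The longer GLI consensus (GACCACCCA, or TGGGTGGTC on the other strand) is in 74 of these windows (0.225%) and in 0 of the 7 member windows.

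*Gli2* was higher in every library labelled Smad4 on than in every library labelled Smad4 off, in all 3 organs and on both days. In the pancreas on day 7 the 3 libraries labelled off held 2.72, 5.08 and 5.01 CPM and the 2 labelled on 43.9 and 38.1 CPM. The liver on day 7 had 0.230 and 5.59 CPM (off) against 44.9, 44.6 and 36.7 CPM (on). In the lungs on day 7 they were 3.18, 2.68, 3.16 and 0.391 CPM (off) against 70.7 and 9.90 CPM (on). The lung library at 9.90 CPM was the lowest of the 17 labelled on and the one at 70.7 CPM the highest, and both came from the same group.

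On day 7, the edgeR quasi-likelihood test called *Gli2* in the pancreas, where it rose by a log2 fold change of 3.23 ± 0.28 (SE; adjusted p = 0.00940), a 9.39-fold difference between 41.0 ± 4.13 CPM (SD, n = 2) and 4.27 ± 1.34 CPM (SD, n = 3). A gene was called when it differed more than 2-fold at an adjusted p under 0.05, and 1.33% of the 14439 genes tested in this comparison were called. The *Gli2* call was lost without mouse 1 labelled on, with mouse number as a replicate block (adjusted p = 0.179) and in a single fit of all 12 groups, whereas DESeq2 kept it. In the liver the log2 fold change was 3.62 ± 1.30 (adjusted p = 0.156), where 0.444% of 16007 genes were called. Without the paired-end library it was 7.43 (adjusted p = 0.0261), with 1 library labelled off left, which is assumed to vary like the others. In the lungs the log2 fold change was 4.14 ± 0.82 (adjusted p = 0.560), where edgeR called 0 of 15193 genes (0%), while 366 higher and 427 lower genes had an unadjusted p under 0.05. DESeq2 called 58 genes higher and 50 lower, *Gli2* among the former. In the interaction test no difference between organs in the *Gli2* response of day 7 was called. The log2 differences were -0.47 ± 1.32 between liver and lungs (adjusted p = 0.870), 0.43 ± 1.36 between liver and pancreas (adjusted p = 0.932) and 0.90 ± 1.33 between lungs and pancreas (adjusted p = 0.904). Without the paired-end library the differences were 3.33 between liver and lungs (adjusted p = 0.157) and 4.21 between liver and pancreas (adjusted p = 0.220), so both rest on that library. Standard errors of this size leave differences of several fold undetectable here.

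**Figure D1:**
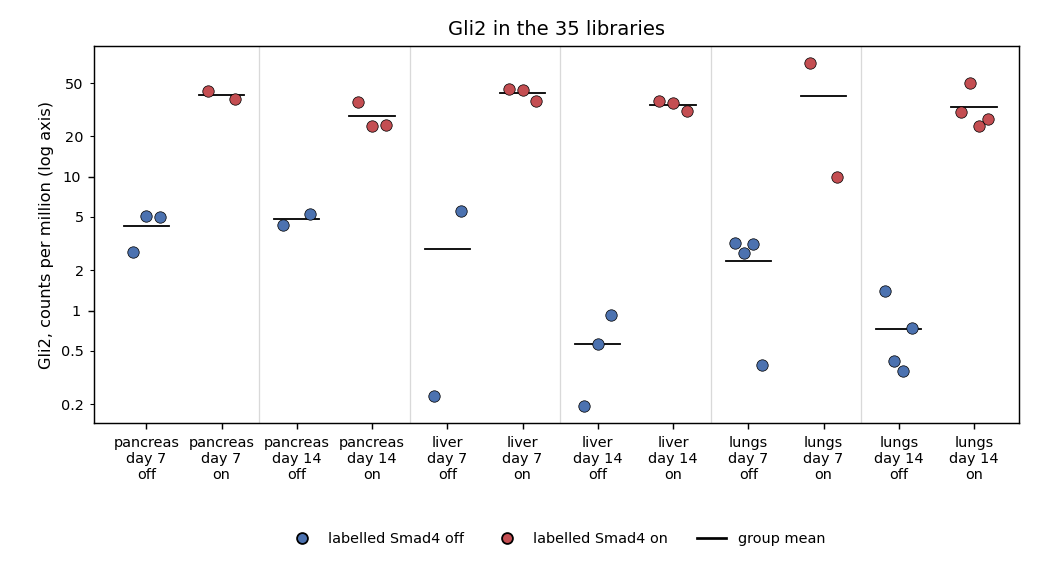
*Gli2* in CPM (log axis) in each of the 35 libraries, by organ, day and *Smad4* label; points are libraries and bars are group means. The 17 libraries labelled Smad4 on sit between 9.90 and 70.7 CPM, above all 18 labelled off, which reach 5.59 CPM.

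On day 14 the pattern that led to the choice of *Gli2* was as follows. In the pancreas the libraries labelled off held 4.38 and 5.25 CPM and those labelled on 36.4, 23.8 and 24.3 CPM. The liver values were 0.194, 0.564 and 0.925 CPM against 37.0, 35.4 and 30.9 CPM. The lung values were 1.41, 0.419, 0.354 and 0.746 CPM against 30.5, 50.4, 23.9 and 26.9 CPM. The log2 fold changes were 2.45 (pancreas), 5.95 (liver) and 5.51 (lungs). The levels labelled on were alike in the 3 organs (group means, 28.2 to 34.5 CPM), while the means labelled off were 4.81 CPM (pancreas), 0.561 CPM (liver) and 0.731 CPM (lungs).

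Ordered by mean, the 12 groups ran from the liver, lungs (day 14) and lungs, liver, pancreas (day 7) to the pancreas (day 14) among those labelled off, and from the pancreas, lungs, liver (day 14) to the lungs, pancreas, liver (day 7) among those labelled on. Each group overlapped its neighbor in this order except at the step from 4.81 to 28.2 CPM that separates the labels. Groups that do not overlap are common in comparisons this small: the share of genes with every library labelled on above every one labelled off on day 7 was 23.2% (pancreas), 28.4% (liver) and 3.32% (lungs), and on day 14 34%, 9.21% and 2.73%. Over all 35 libraries at once, 4 of 15617 genes (0.0256%) were arranged in this way, namely *Gli2*, *Pax9*, *Slc29a3* and *Vstm2b*, and 1 gene, *Smad4*, was arranged in the opposite way; these names were read off after the values were seen, and the arrangement includes the day 14 values for which *Gli2* was chosen.

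Among the libraries labelled off, *Gli2* was higher where fibroblast markers were most abundant. The 5 pancreas libraries labelled off, with marker sums of 12388 to 18182 CPM, held 2.72 to 5.25 CPM of *Gli2*, and the paired-end liver library 5.59 CPM. The other 4 liver libraries labelled off held 0.194 to 0.925 CPM and the 8 lung libraries 0.354 to 3.18 CPM. In the libraries labelled on, *Gli2* was at 23.8 to 43.9 CPM in the pancreas (marker sums, 9275 to 25164 CPM), at 30.9 to 44.9 CPM in the liver (356 to 3057 CPM) and at 9.90 to 70.7 CPM in the lungs (158 to 1660 CPM). The lung library with 158 CPM of the markers was also the one with 9.90 CPM of *Gli2*. The sort selected mKate2+ cells, and whether the markers came from host cells or from sorted tumor cells was not tested, nor was their part in the *Gli2* level.

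**Figure D2:**
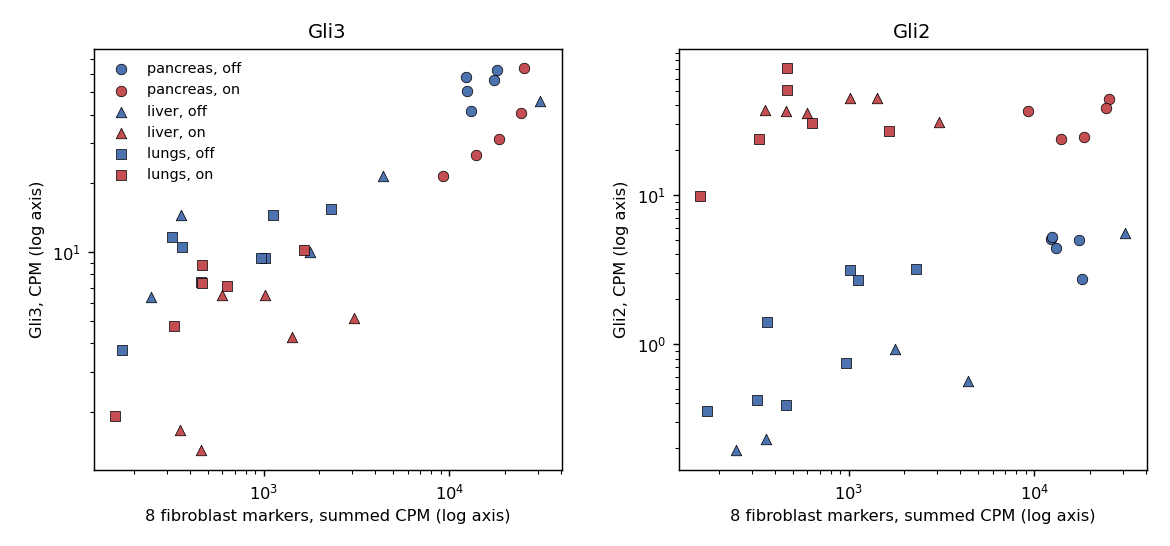
Levels of *Gli3* (left) and *Gli2* (right) against the summed level of 8 fibroblast markers, all in CPM on log axes, with 1 point per library, shaped by organ and colored by label. *Gli3* climbs with the markers to 63.7 CPM in the pancreas, whereas *Gli2* labelled on stays at 9.90 to 70.7 CPM across the whole range.

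The genes whose pattern was most like that of *Gli2* were sought by Pearson correlation of log2(CPM + 0.5) over the 35 libraries, as a description, since these share organ and label. The highest were *Slc29a3* (r = 0.955), *Pax9* (0.807), *Adgrg1* (0.799), *Ppp1r3c* (0.787), *Pygb* (0.781) and *Gm37711* (0.767). *Slc29a3*, which encodes a nucleoside transporter, was at 39.6 to 105 CPM labelled on and 11.4 to 28.3 CPM labelled off. *Pax9*, a foregut transcription factor, was at 51.3 to 158 CPM against 16.7 to 40.8 CPM. The lowest were *Smad4* (r = -0.897), *Odaph* (-0.769) and *Add2* (-0.765). Of the other members, *Gli1* (r = 0.716) and *Ptch1* (r = 0.701) ranked 16 and 24 of 15617 genes, *Hhip*, *Shh* and *Ihh* had r of 0.142 to 0.178, and *Sufu*, *Smo* and *Gli3* of -0.125 to -0.0454.

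Levels of different genes are compared per length, in RPKM (CPM divided by the exon length in kilobases). Over the libraries labelled off the median of *Gli2* was 0.297 RPKM, beside 0.297 RPKM for *Gli1*, 1.52 RPKM for *Gli3* and 16.7 RPKM for *Smo*. Over those labelled on it was 5.30 RPKM, above *Gli3* (0.741 RPKM) and *Gli1* (0.800 RPKM) and close to *Sufu* (5.17 RPKM). *Smo* stayed the highest of the 9 members on this scale (14.7 RPKM).

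The ligand *Shh*, best known from patterning of the early embryo, was near the floor in the pancreas and did not pass the filter on low counts in either pancreas label comparison. Its 10 pancreas libraries held 0.0578 to 0.574 CPM and its 14 lung libraries 0.118 to 2.07 CPM. In 6 of the 35 libraries it had 3 counts or fewer. In the liver on day 7 the 2 libraries labelled off held 0.482 and 0.562 CPM and the 3 labelled on 12.4, 13.7 and 57.2 CPM. These groups did not overlap, and 28.4% of all genes tested there likewise had labelled on above labelled off. The log2 fold change was 5.59 ± 1.04 (adjusted p = 0.0653), just short of a call, and DESeq2 called it (adjusted p = 1.12e-09). It was 5.79 without the paired-end library (adjusted p = 0.0886). On day 14 the liver libraries overlapped, at 0.775, 2.41 and 33.3 CPM (off) and 9.44, 2.22 and 10.2 CPM (on), with a log2 fold change of -0.75 ± 1.27 (adjusted p = 0.906). The library at 33.3 CPM (mouse 3, labelled off) was above all 3 labelled on. Part of the *Shh* exons, 807 bases, overlaps genes on the opposite strand (*9530036O11Rik* and *Gm26894*), and the strand setting of the counting is not given in the sources used here.

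*Ihh*, the ligand known from cartilage and gut, was found in every library. In the pancreas it was at 0.875 to 2.94 CPM and in the lungs at 4.51 to 16.2 CPM. In the liver on day 7 it was at 3.42 and 0.633 CPM labelled off and at 27.1, 35.1 and 23.7 CPM labelled on, a log2 fold change of 3.71 ± 0.73 (adjusted p = 0.0689). Without the paired-end library this was 3.00 (adjusted p = 0.0276). On day 14 the liver groups overlapped, at 5.78, 9.44 and 22.8 CPM against 15.7, 13.9 and 19.8 CPM. The 5 other label comparisons of *Ihh* had log2 fold changes of -0.61 to 0.95, and none was called. Both ligands were high together in the 3 liver libraries of day 7 labelled on and in mouse 3 of the liver labelled off on day 14 (33.3 CPM of *Shh* and 22.8 CPM of *Ihh*).

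*Ptch1*, the ligand receptor and a gene that GLI proteins induce, stayed within a narrow range, 21.6 to 53.5 CPM over all libraries. Its log2 fold change was positive in 6 of 6 comparisons, from 0.23 to 1.06, and none was called. The liver libraries of day 7 labelled off held 21.6 and 21.8 CPM and those labelled on 48.2, 50.1 and 53.5 CPM, a log2 fold change of 1.06 ± 0.18 (adjusted p = 0.0607), and without the paired-end library 1.16 (adjusted p = 0.0443). On day 14 in the liver the values were 22.2, 28.9 and 28.5 CPM against 46.8, 51.6 and 36.4 CPM (log2 fold change, 0.70 ± 0.18; adjusted p = 0.357). In the pancreas on day 14 they were 23.0 and 33.6 CPM against 39.8, 41.9 and 42.5 CPM (0.45 ± 0.16; adjusted p = 0.102). The groups did not overlap in these 3 comparisons and overlapped in the pancreas on day 7 and in the lungs on both days. Of all genes tested, 28.4% (liver day 7), 9.21% (liver day 14) and 34% (pancreas day 14) had every library labelled on above every one labelled off.

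*Hhip*, a membrane protein that captures ligand and a GLI-induced gene, scattered widely between mice. In the lungs the 4 libraries of day 7 labelled off held 23.5, 9.43, 17.4 and 11.5 CPM and the 2 labelled on 31.1 and 119 CPM, a log2 fold change of 2.48 ± 0.56 (adjusted p = 0.690 with edgeR and 0.00557 with DESeq2). On day 14 the lung values were 16.5, 14.2, 12.6 and 11.7 CPM against 10.5, 34.9, 56.5 and 106 CPM (1.91 ± 0.58; adjusted p = 0.312), and mouse 1 labelled on lay below all 4 labelled off. In the pancreas on day 14 they were 2.31 and 3.85 CPM against 63.9, 13.1 and 8.44 CPM (3.12 ± 1.20; adjusted p = 0.193). In the liver *Hhip* was lower, at 0.967 to 7.95 CPM over the libraries other than the paired-end one, which held 15.5 CPM. The log2 fold change on day 7 there was -2.10 ± 0.78 (adjusted p = 0.164), and -0.96 (adjusted p = 0.462) without that library.

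*Smo*, the transducer that Patched holds in check, and *Sufu*, which retains GLI proteins in the cytoplasm, passed no label test. *Smo* was at 43.5 to 164 CPM, with the highest value in the paired-end liver library, and its log2 fold changes ran from -1.28 to 0.18. The lowest, in the liver on day 7 (adjusted p = 0.125), was -0.58 without that library. *Sufu* was at 30.8 to 69.8 CPM with log2 fold changes of -0.53 to 0.04. The lowest, in the liver on day 7, was -0.23 without that library.

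**Figure D3:**
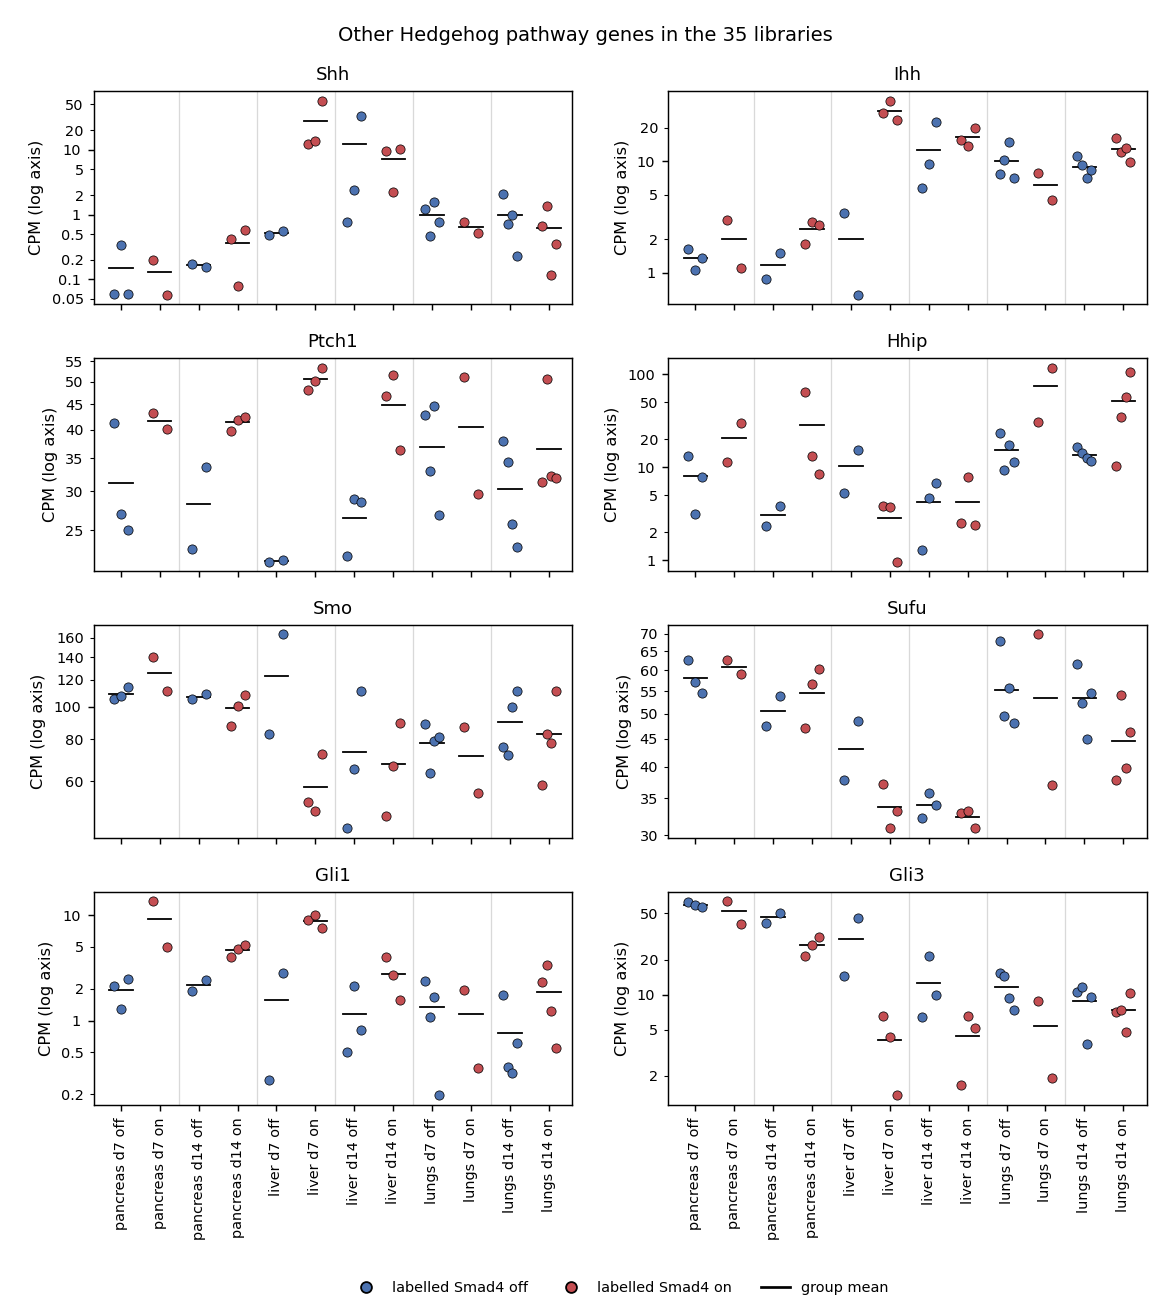
The 8 members other than *Gli2* in each library, in CPM (log axes), by organ, day (d7 or d14) and label, with bars at group means. *Shh* and *Ihh* are high in the 3 liver libraries of day 7 labelled on (12.4 to 57.2 CPM and 23.7 to 35.1 CPM), *Gli3* is highest in the pancreas, and *Sufu* stays between 30.8 and 69.8 CPM.

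*Gli1*, the GLI factor used most often as a readout of pathway activity, was low everywhere (0.195 to 13.6 CPM). In the pancreas on day 14 it was at 1.89 and 2.42 CPM labelled off and at 4.00, 4.78 and 5.25 CPM labelled on. It rose there by a log2 fold change of 1.01 ± 0.27 (adjusted p = 0.0450), 2.02-fold, where 4.64% of 14234 genes were called. This call lies at both thresholds and was lost with DESeq2 (which called *Hhip* there instead, adjusted p = 0.0370), without a filter on low counts, with a replicate block (adjusted p = 0.140), in a single fit and without 4 of the 5 libraries in turn. On day 7 the pancreas values were 2.11, 1.28 and 2.48 CPM against 13.6 and 4.97 CPM (log2 fold change, 2.22 ± 0.49; adjusted p = 0.0711). The liver values of day 7 were 0.275 and 2.85 CPM against 8.98, 10.0 and 7.59 CPM (2.27 ± 1.02; adjusted p = 0.230). Without the paired-end library, which held the 2.85 CPM, this was 4.93 (adjusted p = 0.0263). In the lungs the groups overlapped on both days, with log2 fold changes of -0.16 ± 0.95 on day 7 and 1.32 ± 0.66 on day 14. Exons of *Gli1* share 327 bases with genes of the opposite strand.

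*Gli3*, the GLI factor that acts mainly as a repressor, had a lower mean labelled on in 6 of 6 comparisons, with log2 fold changes of -3.13 to -0.21, none of them called. In the pancreas on day 14 the libraries labelled off held 41.6 and 50.9 CPM and those labelled on 21.5, 26.7 and 31.4 CPM. The log2 fold change of -0.90 ± 0.16 passed the test (adjusted p = 0.0127) but stayed under 2-fold, and with a replicate block it was called at -1.05 (adjusted p = 0.0107). In the liver on day 7 the values were 14.5 and 45.9 CPM against 6.50, 4.28 and 1.36 CPM (-3.13 ± 0.81; adjusted p = 0.0939), and without the paired-end library, which held the 45.9 CPM, -1.91 (adjusted p = 0.183). The liver values of day 14 were 6.36, 21.6 and 10.0 CPM against 1.68, 6.52 and 5.14 CPM (-1.54 ± 0.62; adjusted p = 0.50). *Gli3* followed the fibroblast markers between organs, with 21.5 to 63.7 CPM in the 10 pancreas libraries, 45.9 CPM in the paired-end liver library, 1.36 to 21.6 CPM in the other 10 liver libraries and 1.93 to 15.4 CPM in the 14 lung libraries. The part of fibroblast RNA in this was not tested.

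**Figure D4:**
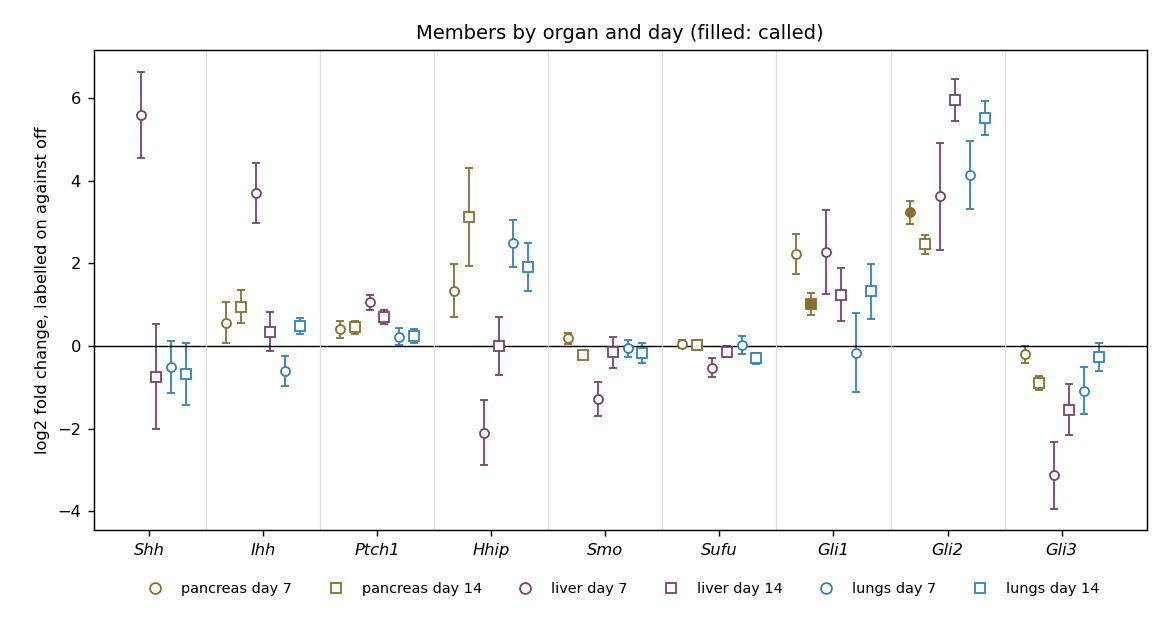
Log2 fold changes (labelled on against off) with standard errors for the 9 members in the 6 label comparisons; circles are day 7, squares day 14, and filled symbols were called. *Gli2* is above 0 in all 6 (2.45 to 5.95), its day 14 values being drawn open because they were not tested, and *Gli1* in the pancreas on day 14 is the other filled symbol.

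Over the 6 label comparisons, the members called were *Gli2* in the pancreas on day 7 (1 of 8 tested) and *Gli1* in the pancreas on day 14 (1 of 7 tested). Of all genes, 1.33% of 14439 were called in the former comparison and 4.64% of 14234 in the latter. For the liver on day 7, edgeR called 0 of 9 members, although 7 were at an unadjusted p under 0.05 and DESeq2 called 7. Over all genes, 2217 higher and 2123 lower of 16007 were at an unadjusted p under 0.05, and DESeq2 called 1641 higher and 1246 lower of 29248. Leaving out either library labelled off leaves 1 in that group, so calls from those fits are not read as results about the members. In the lungs on day 7, 0 of 9 were called, with 2 at an unadjusted p under 0.05 and 2 called by DESeq2 (*Gli2* and *Hhip*). There edgeR called 0% of 15193 genes. *Smad4*, 4.61-fold lower labelled on, was not called there either (edgeR, adjusted p = 0.151). Nor was it called in the liver on day 14, where it was 7.64-fold lower (edgeR, adjusted p = 0.0625). In both comparisons the lack of calls says little about the members. In the liver on day 14, 0 of 8 were called, with 2 at an unadjusted p under 0.05 and 0 called by DESeq2, where edgeR called 0% of 14947 genes (689 higher and 758 lower at an unadjusted p under 0.05) and DESeq2 133 higher and 198 lower. For the lungs of day 14, 0 of 8 were called, with 3 at an unadjusted p under 0.05 and 1 (*Hhip*) called by DESeq2. Of all 14751 genes there, 4 (0.0271%) were called. With a replicate block 82 genes were called higher and 27 lower, with 0 members among them. On day 7 the median log2 fold change of the members that passed the filter, *Gli2* included, was 0.48 (pancreas), 1.06 (liver) and -0.06 (lungs). Medians of all genes tested there were between -0.06 and 0.01. No member median is given for day 14, since *Gli2* was chosen by its values of that day.

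Whether a member responded to the label differently in 2 organs was tested on each day by the difference of the log2 fold changes. On day 7 the responses of 3 members differed between liver and lungs, where 8.48% of 16513 genes were called. The response of *Shh* was greater in the liver by 6.19 ± 1.18 (adjusted p = 0.0123) and that of *Ihh* by 4.38 ± 0.79 (adjusted p = 0.0103), while that of *Hhip* was lower by 4.50 ± 1.03 (log2 difference, -4.50; adjusted p = 0.0220). In the lungs the log2 fold changes behind these were -0.52 (*Shh*), -0.61 (*Ihh*) and 2.48 (*Hhip*), none of them called. Without the paired-end library the differences were 6.38 (adjusted p = 0.0368) for *Shh*, 3.65 (adjusted p = 0.0253) for *Ihh* and -3.39 (adjusted p = 0.0863) for *Hhip*. Without mouse 2 of the lungs labelled on, or with a replicate block, none of the 3 was called. Between liver and pancreas on day 7 (1.62% of genes called) edgeR called 0 of 9 members, with 5 at an unadjusted p under 0.05 and 5 called by DESeq2. Between lungs and pancreas (0% of genes called) it called 0, with 0 at an unadjusted p under 0.05 and 0 by DESeq2. On day 14 none of the 8 members tested was called between liver and pancreas (0%), lungs and pancreas (0.00591%) or liver and lungs (0%), with 1, 0 and 0 at an unadjusted p under 0.05 and 0 called by DESeq2.

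Organ differences within a label were the most frequent calls among the members, 24 over 12 comparisons, and DESeq2 called each of the 24 as well. They include 4 of *Shh* against the pancreas, which are no support for a difference: *Shh* did not pass the filter among pancreas libraries and entered these fits only through groups where it was higher. *Ihh* was higher in the lungs than in the pancreas labelled off on day 7, by a log2 fold change of 2.76 ± 0.50 (adjusted p = 0.00438; 12.9% of genes called). On day 14 it was higher by 2.80 ± 0.45 labelled off (adjusted p = 5.63e-04; 12.2% called) and by 2.38 ± 0.38 labelled on (adjusted p = 9.15e-04; 7.68% called). In the liver it was above the pancreas by 3.84 ± 0.63 labelled on for day 7 (19% called), and on day 14 by 3.35 ± 0.47 labelled off (12.1% called) and 2.79 ± 0.39 labelled on (13.4% called). In these contrasts with the pancreas the *Ihh* order went with the carcinoma markers. Their sum on day 7 labelled off was 2299 to 3610 CPM in the pancreas and 6088 to 11173 CPM in the lungs. Labelled on, it was 3141 to 4339 CPM in the pancreas and 12923 to 14982 CPM in the liver. Between liver and lungs the order did not always hold. Mouse 1 of the liver labelled off on day 7 had a marker sum of 11128 CPM and 3.42 CPM of *Ihh*. The 4 lung libraries of that day and label held 7.03 to 14.9 CPM of *Ihh*. The part of the carcinoma markers in the *Ihh* differences was not tested. *Shh* is given by its levels, since its 10 pancreas libraries held 7 counts at most (0.0578 to 0.574 CPM): the 6 liver libraries labelled on held 2.22 to 57.2 CPM. Labelled on for day 7 (7.45% called), both ligands were also higher in the liver than in the lungs, by 5.51 ± 0.94 (*Shh*) and 2.26 ± 0.57 (*Ihh*).

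*Gli3* was lower in the lungs than in the pancreas in all 4 comparisons, including that labelled on for day 7 (3.85% called), with log2 fold changes of -3.36 to -1.85. It was lower in the liver than in the pancreas in 3 of 4, with log2 fold changes of -3.69 to -1.93. The fibroblast markers had the same order (above). *Hhip* was lower in the liver labelled on than in the pancreas and the lungs on both days, with log2 fold changes of -4.77 to -2.68; for liver against lungs on day 14, 2.66% of genes were called. *Smo* was lower in the liver than in the pancreas labelled on for day 7 (-1.09 ± 0.30; adjusted p = 0.0197). *Sufu* passed the adjusted p in some of the 12 (such as -0.71 ± 0.13 for liver against pancreas labelled on for day 14, adjusted p = 0.00114) but stayed under 2-fold. *Gli1* and *Ptch1* were called in none of the 12, and *Gli2* in none of the 6 of day 7. In the comparisons of liver and pancreas labelled off on day 7 (0% of genes), liver and lungs labelled off on day 7 (0.648%) and liver and lungs labelled off on day 14 (2.5%), edgeR called 0 members, with 0, 4 and 3 at an unadjusted p under 0.05 and 0, 1 and 1 called by DESeq2. Of the 24 calls, 13 held without each library in turn. Those of *Ihh* held in all but the difference of liver and lungs, and 4 of *Gli3*, 2 of *Shh* and 1 of *Hhip* held. The held *Shh* calls include liver against pancreas labelled on for day 7. That call is no support for a difference, since *Shh* did not pass the filter among pancreas libraries.

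Between day 7 and day 14 within an organ and label, 1 member was called. *Gli3* labelled on in the pancreas fell by 1.01 on the log2 scale (SE, 0.20; adjusted p = 0.0431), from 63.7 and 40.5 CPM to 21.5, 26.7 and 31.4 CPM, in a comparison where 0.378% of 15093 genes were called. This call was lost without 8 of the 10 pancreas libraries in turn and in a single fit. The other 5 comparisons, with 1.11% of genes called in the pancreas labelled off and 0% in each of the 4 liver and lung comparisons, held no called member. There, 0, 3, 0, 0 and 1 members (pancreas off, liver off, liver on, lungs off, lungs on) were at an unadjusted p under 0.05, and DESeq2 called 1, in the liver labelled off. For *Gli2*, which was not tested here, the log2 difference of day 14 from day 7 was 0.20 (pancreas), -2.56 (liver) and -1.64 (lungs) labelled off, and -0.57, -0.27 and -0.27 labelled on.

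A list of 49 other Hedgehog genes was examined by role. Few of them were called. Among the 7 genes that process and release ligand, *Scube1*, a secreted protein of a family that helps ligand leave the cell, rose in the pancreas on both days, with log2 fold changes of 4.37 ± 0.43 (day 7; adjusted p = 0.0137) and 3.57 ± 0.55 (day 14; adjusted p = 0.0117). Its level was 0.882 ± 0.459 CPM (SD, n = 3) labelled off and 18.9 ± 5.14 CPM (SD, n = 2) labelled on for day 7, and 0.902 ± 0.309 CPM (SD, n = 2) and 11.5 ± 5.54 CPM (SD, n = 3) for day 14. *Hhat*, the enzyme that adds palmitate to the ligand, fell in the pancreas on day 14, by 1.02 on the log2 scale (SE, 0.14; adjusted p = 0.00352). Among the 7 receptors and coreceptors, *Cdon*, a membrane protein that helps ligand bind Patched, rose in the pancreas on day 7 by 1.22 ± 0.20 (adjusted p = 0.0460), from 79.3 ± 17.6 CPM (SD, n = 3) to 188 ± 24.5 CPM (SD, n = 2). There the fibroblast marker sum was 24256 to 25164 CPM labelled on and 12388 to 18182 CPM labelled off, and its part in this result was not tested. With a replicate block *Scube1* and *Cdon* were not called on day 7. In a single fit neither they nor the *Scube1* and *Hhat* calls of day 14 remained, and leaving out 1 library ended each of the 4 calls at least once.

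Of the 14 cytoplasmic regulators and the 8 primary cilium genes, none was called in any of the 6 comparisons. Of 13 genes known to be regulated by GLI factors, *Foxl1*, a forkhead factor of mesenchyme, fell in the pancreas on day 14 by 2.01 on the log2 scale (SE, 0.51; adjusted p = 0.0384), from 1.55 ± 0.613 CPM (SD, n = 2) to 0.403 ± 0.161 CPM (SD, n = 3), with 3 to 8 counts per library labelled on. This call was lost with a replicate block, in a single fit and without 4 of the 5 libraries in turn. In all, 2 of the 47 list genes tested were called in the pancreas on day 7, both higher, against 1.33% of all genes, and 3 of 47 on day 14, 1 higher and 2 lower, against 4.64%. The other 4 comparisons had 0 called of 45 to 49 tested, with 20 (liver day 7), 3 (lungs day 7), 3 (liver day 14) and 4 (lungs day 14) at an unadjusted p under 0.05 and 11, 1, 1 and 0 called by DESeq2. The median log2 fold change of the list on days 7 and 14 was 0.17 and -0.15 for the pancreas, -0.65 and -0.20 for the liver, and -0.08 and -0.09 for the lungs. In the liver on day 7, 38 of 46 list genes had a negative log2 fold change, and the paired-end library, rich in fibroblast markers, was 1 of the 2 labelled off. Without it that group holds 1 library, so calls from that fit are not read as a result about the list.

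**Figure D5:**
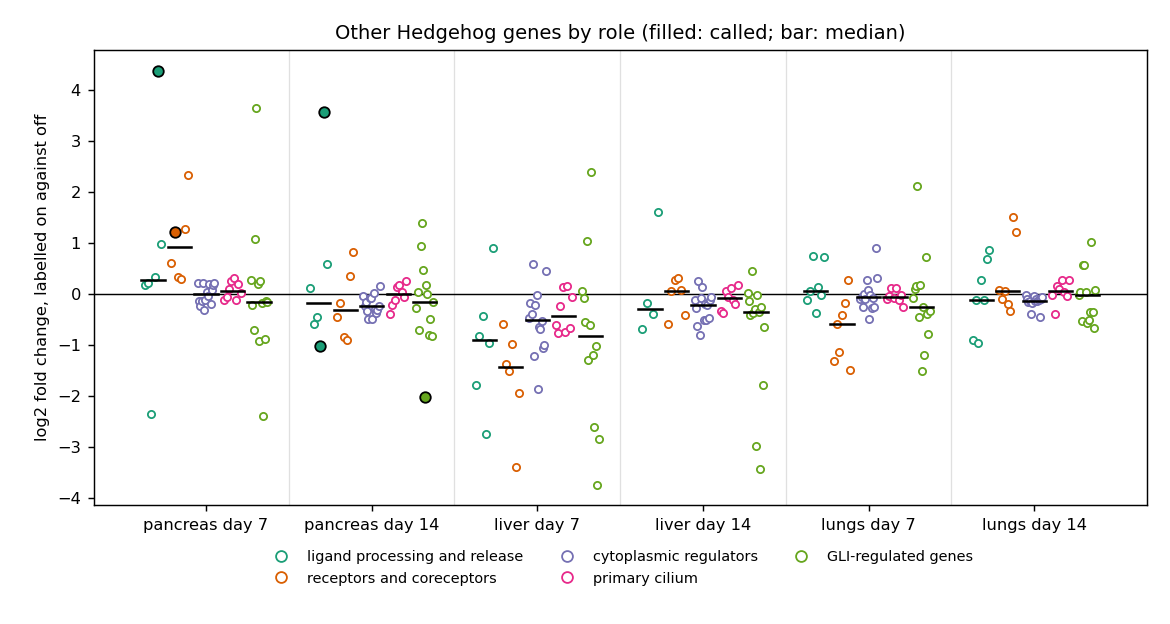
Log2 fold changes (labelled on against off) of the other Hedgehog genes by role in the 6 label comparisons; each point is a gene, black bars are medians and filled points were called. The filled points are *Scube1* (4.37 and 3.57), *Cdon* (1.22), *Hhat* (-1.02) and *Foxl1* (-2.01), all in the pancreas.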

How the data were processed

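Sorted mKate2+ cells of 35 mice were profiled by stranded, 75-base RNA-seq, single-end except for 1 paired-end library. Part of the genotype that all groups share is not reported here. Per the labels and the study's methods, the authors trimmed reads (Trimmomatic 0.36, quality checked with FastQC 0.11.5), aligned them to GRCm38 with STAR 2.5.3a and deposited gene counts made with featureCounts 1.6.3. The strand setting, and hence how reads of genes overlapping on opposite strands were split, is not given in the sources used here.

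The members and lists were chosen with earlier results of these data known. The text names all 9 members, the list genes called in any label comparison, and the 6 genes most and 3 least like *Gli2*. Counts were tested with edgeR 4.0.16 (R 4.3.3; quasi-likelihood test, robust, TMM factors, default filter with a minimum count of 10) per organ and day for the label, and per day or organ for the other differences, with Benjamini-Hochberg adjustment over all genes tested. A call needed over 2-fold and an adjusted p under 0.05. CPM use library totals. RPKM use the exon length of GENCODE M21, and overlaps and coordinates come from it. The floor of 3 counts covers counting error only, and SDs and SEs reflect the spread between mice.

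The main tests did not pair libraries, and mouse numbers entered only through the replicate block, an alternative. In the lungs on day 14 the correlations of same-numbered deviations were 0.546 to 0.657 over 4 pairs. Differently numbered mice there reached 0.509 to 0.666, and a mouse's own number gave the highest value for 1 of 4. These correlations therefore do not establish a pairing. Alternatives were DESeq2 1.42.0, its size factors, other filters, no fold threshold, a replicate block, an mt-Co3 covariate, a single fit of 12 groups and leaving out each library. The procedure was tested on simulated counts with 200 genes changed 4-fold. For the liver on day 7 edgeR recovered 12.5% of them with 4 false calls, and DESeq2 68% with 101. In the other label comparisons edgeR recovered 57% to 92% with 4 to 13 false calls. DESeq2 recovered 70.5% to 90% there with 6 to 69 false calls. The simulated counts varied independently around 1 mean per gene, without differences between whole libraries such as those in the fibroblast markers. Recovery in the real libraries may therefore be lower. Figures were drawn with Python 3.11.15 and matplotlib 3.10.9.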

Additional observations from a re-analysis of the deposited data

Results flagged for a closer look

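*Ptch1* in the lungs on day 14 labelled on was at 50.6 CPM in mouse 2, far from the other 3 mice of its group (31.4 to 32.3 CPM). It was the 1 outlying value among 27 groups of 4 libraries tested, and chance gives about 1 in 20.

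The response to the label on day 7 differed between liver and lungs for 3 members by the interaction test of edgeR. Of all 16513 genes, 8.48% were called in that test. The log2 differences (liver minus lungs) were 6.19 for *Shh*, 4.38 for *Ihh* and -4.50 for *Hhip*. Without mouse 2 of the lungs labelled on, or with a replicate block, none of the 3 was called. No member was called in the same test on day 14, where 0% of 16907 genes were called, so these calls do not compare the days.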

How the results depend on the processing

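No called value changed direction under any of the alternatives. Of 100 alternatives to 16 counts of calls, 66 stayed within 1.5 times the main count and 34 did not. Counts of 0 that stayed 0, as in many liver and lung comparisons, are among the 66 and say little about stability. With DESeq2 the members called were 2 (pancreas day 7), 7 (liver day 7), 2 (lungs day 7) and 1 (lungs day 14), 8 in the interactions and 2 over time, against 1, 0, 0, 0, 3 and 1, and the list genes called were 6, 11 and 1 on day 7 (pancreas, liver, lungs) and 1 in the liver on day 14, against 2, 0, 0 and 0. Without a filter on low counts the members called were 2 (pancreas day 7), 1 (liver day 7) and 0 (pancreas day 14), and the list genes 5 (pancreas day 7) and 3 (liver day 7). With at least 10 counts in every library they were 1 member in the liver and 1 list gene in the pancreas on day 7. The mt-Co3 covariate gave 3 members and 2 list genes in the liver and 1 member in the lungs on day 7. Over all genes it called 558 higher and 464 lower of 16007 in that liver comparison, and 4 higher and 0 lower of 15193 in the lungs. Without a fold threshold the pancreas on day 14 had 2 members and 7 list genes, and over all genes 940 higher and 897 lower of 14234. A single fit of 12 groups called 0, 6, 1 and 0 members (pancreas, liver, lungs day 7, pancreas day 14), 1, 8 and 0 list genes (pancreas, liver day 7, pancreas day 14) and 5 members in the interactions. Over all genes in the liver on day 7, DESeq2 called 1641 higher and 1246 lower of 29248. The single fit called 1706 higher and 1391 lower of 17547 in that comparison. Without a filter it was 435 higher and 542 lower of 29248. In the pancreas on day 7 DESeq2 called 362 higher and 171 lower of 26099. The member and list counts given here are not read as results about the pathway. The cause of their changes was not tested.

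With mouse number as a replicate block, the pancreas on day 7 had 0 members and 0 list genes called and 0 members in the interactions. In the pancreas on day 14 it called 1 member, *Gli3* in place of *Gli1*, and it changed no other count of members called by the label. Same-numbered libraries share only a number, in the lungs on day 14 as well. Their correlations elsewhere were -0.352 to 0.479.

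Leaving out each library in turn, the members called by the label ranged from 0 to 1 (pancreas day 7), 0 to 5 (liver day 7) and 0 to 3 (pancreas day 14), and were 0 in the other comparisons. The list genes ranged from 0 to 3 (pancreas day 7), 0 to 16 (liver day 7), 0 to 1 (lungs day 7) and 0 to 5 (pancreas day 14). The interactions held 0 to 10, organ differences 21 to 30 and time differences 0 to 2 member calls. The highest liver counts, 5 and 16, came without mouse 1 labelled off, which leaves the paired-end library alone in its group. The 0 in the interactions came without mouse 2 of the lungs labelled on for day 7. With a pseudocount of 0.05 CPM, 5 of the 9 genes named for likeness to *Gli2* were kept. Depth limits genes near the floor, such as *Shh* in the pancreas.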
